A study of Mus musculus with 18 samples.

Results

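The stretch of mouse chromosome 14 around *Mettl3* was examined in ventricles of adult WT, *Mettl3* KO and *Trdn-as* KO mice. All peaks of the deposited table that start between 42500000 and 62500000 on chromosome 14 (GRCm39) were taken, which places the promoter peak of *Mettl3*, from 52541954 to 52542861, near the middle. This gave 843 of the 101256 peaks of the table. The rule used the position of a peak and none of its values, and the rest of chromosome 14, with 2881 peaks, and the other chromosomes, with 97532 peaks, served for comparison.

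*Mettl3* encodes the catalytic subunit of the complex that writes N6-methyladenosine (m6A) on RNA, a mark that acts on splicing, polyadenylation and RNA decay. RNA polymerase II (Pol II) pauses just past the promoters of active genes, so its chromatin signal is highest there, and on strongly transcribed genes it covers the whole gene body. CTCF is a zinc finger protein that binds fixed DNA motifs and, with cohesin, anchors chromatin loops. In the heart, the same region of chromosome 14 holds *Myh6* and *Myh7*, which encode the α and β myosin heavy chains of the cardiomyocyte and lie next to each other.

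Each chromatin preparation pooled the ventricles of 2 adult hearts, and each genotype had 2 libraries for Pol II, 2 for CTCF and 1 for IgG. *Mettl3* KO mice carried floxed *Mettl3* alleles and a tamoxifen-inducible Cre (MerCreMer) driven by the αMHC (*Myh6*) promoter, so the gene is removed only from cardiomyocytes and only after tamoxifen, while the other cell types of the ventricle keep it. The transgene brings additional copies of *Myh6* promoter sequence into the genome. In *Trdn-as* KO mice a polyA signal was inserted into the first exon of the antisense RNA *Trdn-as*, and no change of the *Mettl3* locus is described for them. The study's methods describe floxed control mice without the Cre that also received tamoxifen, but the control libraries here are labelled WT, and no source ties them to those mice. Whether the 2 libraries of a genotype came from separate animals is not stated, so the p-values measure only the spread between these libraries, which may be technical. In whole ventricle, fewer cells of a type and less Pol II per cell cannot be told apart.

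The values are read counts per peak that the authors normalised by library and rounded to whole numbers, here called normalised read counts. Estimated reads in peaks ran from 1987884 to 4954244 for Pol II and from 273507 to 813529 for IgG. The second *Trdn-as* KO library for Pol II stood apart, with 18.6% of its uniquely mapped reads in peaks against 35.5% to 42.6% in the other Pol II libraries. Calls against *Trdn-as* KO are therefore also given without it. Of the marker lists, cardiomyocyte genes had the most Pol II per length, with median levels of 298 to 305 normalised read counts per kb in WT and 277 to 279 in *Mettl3* KO over 7 genes. All 4 fibroblast markers had higher levels in both *Mettl3* KO libraries than in WT, with medians of 159 and 175 per kb against 83.0 and 83.6, and *Trdn-as* KO libraries at 82.8 and 118. Of the 4 macrophage and leukocyte markers 3 had a peak, and their medians overlapped between WT (58.2 and 74.4 per kb) and *Mettl3* KO (62.6 and 85.6). *Adgre1* was above WT in both *Mettl3* KO libraries, *Cd68* was below in both, and *Ptprc* overlapped. Of the 4 endothelial markers 3 had a peak, with medians of 144 per kb in both WT libraries and 142 and 154 in *Mettl3* KO. *Kdr* and *Tek* were above WT in both *Mettl3* KO libraries, and *Cdh5* overlapped.

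The promoter DNA of 4 genes shows how different the promoters of the region are, since *Mettl3* and *Chd8* are promoters of the deleted gene and a neighbour, and *Myh6* and *Myh7* carry the strongest Pol II signal of the window. The sequences are the 250 bases before the transcription start in RefSeq (GRCm38.p6, chromosome 14, minus strand, written 5′ to 3′). Capitals mark GGGCGG, the GC box, and CATTCC, the core of the motif of TEAD factors, on either strand. TATAAA, the core of the CTCF motif and AGATAA, a motif of GATA factors, were also searched on both strands. In this build the stretches are chr14:52305125-52305374, chr14:52257761-52258010, chr14:54966608-54966857 and chr14:54994627-54994876, in the order shown, and these positions cannot be set against those of the peaks, which are in GRCm39.

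*Mettl3*: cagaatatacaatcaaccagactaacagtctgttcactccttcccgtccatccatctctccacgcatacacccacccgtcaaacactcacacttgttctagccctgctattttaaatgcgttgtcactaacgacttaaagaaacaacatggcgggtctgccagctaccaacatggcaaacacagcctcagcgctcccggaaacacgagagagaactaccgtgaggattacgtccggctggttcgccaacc

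*Chd8*: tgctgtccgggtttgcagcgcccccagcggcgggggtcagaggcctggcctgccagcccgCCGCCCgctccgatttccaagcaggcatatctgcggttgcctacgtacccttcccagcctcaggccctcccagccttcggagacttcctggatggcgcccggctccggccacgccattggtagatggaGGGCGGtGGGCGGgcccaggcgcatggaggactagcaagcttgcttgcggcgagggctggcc

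*Myh6*: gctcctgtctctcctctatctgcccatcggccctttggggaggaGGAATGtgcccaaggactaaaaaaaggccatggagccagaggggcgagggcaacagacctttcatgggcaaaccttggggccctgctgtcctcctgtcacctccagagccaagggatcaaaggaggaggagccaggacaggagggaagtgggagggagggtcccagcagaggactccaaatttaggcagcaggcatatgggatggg

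*Myh7*: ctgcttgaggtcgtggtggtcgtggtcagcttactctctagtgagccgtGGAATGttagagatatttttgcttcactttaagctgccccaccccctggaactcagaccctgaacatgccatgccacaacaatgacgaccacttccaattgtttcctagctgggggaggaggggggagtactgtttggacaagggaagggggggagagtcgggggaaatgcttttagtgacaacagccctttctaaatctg

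The *Mettl3* stretch held 13 CpG and none of the 5 motifs, and that of *Chd8* held 20 CpG and GGGCGG at 3 places. Those of *Myh6* and *Myh7* held 2 and 5 CpG and 1 CATTCC each, which reads GGAATG in the strand printed, 206 and 201 nt before the start. RefSeq holds another start for *Myh7*, whose stretch (chr14:54994550-54994799, not printed) overlaps the one shown and held 2 CpG and none of the 5 motifs. The median of all 32851 RefSeq promoters was 6 CpG. GGGCGG was found in 46.6% of the 176 promoters of window genes that could be matched and in 32.7% of all promoters, CATTCC in 10.8% and 12.6%, TATAAA in 5.68% and 12.4%, AGATAA in 7.95% and 9.99%, and the CTCF core in 0.57% and 2.07%. A match describes letters and not a bound site.

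Of the 843 peaks, 319 lay at smaller and 523 at larger coordinates than the *Mettl3* promoter peak. The table annotates 280 to promoters of protein-coding genes and 52 to lncRNA genes, and 423 to no gene, and 510 overlap a gene body. The median length was 476 nt (416 nt for all peaks), and the longest, of 32955 nt, covers *Myh6*. A peak was tested for a target where 2 or more of its 6 libraries reached a value of 10, which 458 members passed for Pol II and 549 for CTCF. 356 passed for both, 102 for Pol II alone, 193 for CTCF alone, and 192 for neither.

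At *Mettl3* itself, Pol II was present at the promoter in hearts of every genotype. The gene (ENSMUSG00000022160) runs from 52532298 to 52542585 on the minus strand, and only 2 peaks lie on it, the promoter peak and a peak near its 3′ end. The promoter peak had normalised Pol II read counts of 177 and 202 (WT), 240 and 235 (*Mettl3* KO) and 203 and 161 (*Trdn-as* KO). The highest 2 of the 6 libraries were thus those of *Mettl3* KO. The log2 fold change of *Mettl3* KO against WT was 0.33 (SE 0.20), with an adjusted p of 0.44 in limma, so the difference did not pass the test. Of every 100000 normalised reads in peaks, the promoter peak took 3.88 to 4.63 in the 6 Pol II libraries and 2.85 to 3.29 in the IgG libraries. The IgG libraries held an estimated 23 (WT), 14 (*Mettl3* KO) and 9 (*Trdn-as* KO) reads there. Peaks held 4.92% to 5.71% of the uniquely mapped reads of the IgG libraries and 18.6% to 42.6% of those for Pol II. Such shares therefore do not compare the level of 1 target with that of another.

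The second peak on the gene, from 52532801 to 52533746, lies 8.2 kb from the promoter peak and carried CTCF rather than Pol II. Its CTCF values were 76 and 66 (WT), 67 and 59 (*Mettl3* KO) and 66 and 81 (*Trdn-as* KO). The *Mettl3* KO values overlapped with those of WT, with a log2 fold change of -0.17 (SE 0.13, adjusted p = 0.56 in limma). Pol II there was 22 and 13 in WT and again 22 and 13 in *Mettl3* KO. No peak between these 2 was in the table. Which exons the floxed alleles remove is not given in the sources used here, so whether either peak lies in the deleted stretch cannot be told.

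Within 50 kb of the *Mettl3* promoter peak there were 9 peaks, of which 5 were tested for Pol II and 7 for CTCF, and none passed the test for either in limma. At an unadjusted p below 0.05 it was 0 for Pol II and 1 for CTCF, beside 15.5% and 15.7% of all tested peaks. *Chd8*, a chromatin remodeller, lies 46.0 kb away and had Pol II values of 221 and 220 (WT), 287 and 264 (*Mettl3* KO) and 249 and 171 (*Trdn-as* KO). *Rab2b*, a small GTPase of vesicle traffic, had 297 and 289 (WT), 352 and 331 (*Mettl3* KO) and 306 and 226 (*Trdn-as* KO). Both promoters lay above WT in both *Mettl3* KO libraries, with log2 fold changes of 0.32 (SE 0.20, adjusted p = 0.44) and 0.22 (SE 0.18, adjusted p = 0.58) in limma. On the other side of *Mettl3*, a peak without a gene 10.2 kb away had 49 and 52 (WT), 79 and 66 (*Mettl3* KO) and 104 and 35 (*Trdn-as* KO). Its 2 *Trdn-as* KO libraries were both the highest and the lowest of the 6, and its log2 fold change for *Mettl3* KO was 0.51 (SE 0.32, adjusted p = 0.45 in limma).

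CTCF near *Mettl3* was strongest at the *Rab2b* promoter, with 201 and 168 (WT), 216 and 200 (*Mettl3* KO) and 209 and 229 (*Trdn-as* KO). A CTCF peak 33.1 kb upstream of *Mettl3* had 94 and 76 (WT), 71 and 58 (*Mettl3* KO) and 79 and 97 (*Trdn-as* KO). It was lower in both *Mettl3* KO libraries than in WT, with a log2 fold change of -0.39 (SE 0.14, adjusted p = 0.19 in limma), which did not pass the test. Within 500 kb the other strong CTCF peaks were the *Zfp219* promoter, with 252 in both WT libraries and 285 and 273 in *Mettl3* KO, and a peak without a gene 399 kb away, with 182 and 153 for WT against 157 and 156 for *Mettl3* KO. At the *Mettl3* promoter the CTCF values of 39 to 52 were 1.26 to 1.71 of every 100000 normalised reads in peaks. The IgG share there was 2.85 to 3.29, but as a share of reads in peaks it does not compare with that of CTCF.

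**Figure D1:**
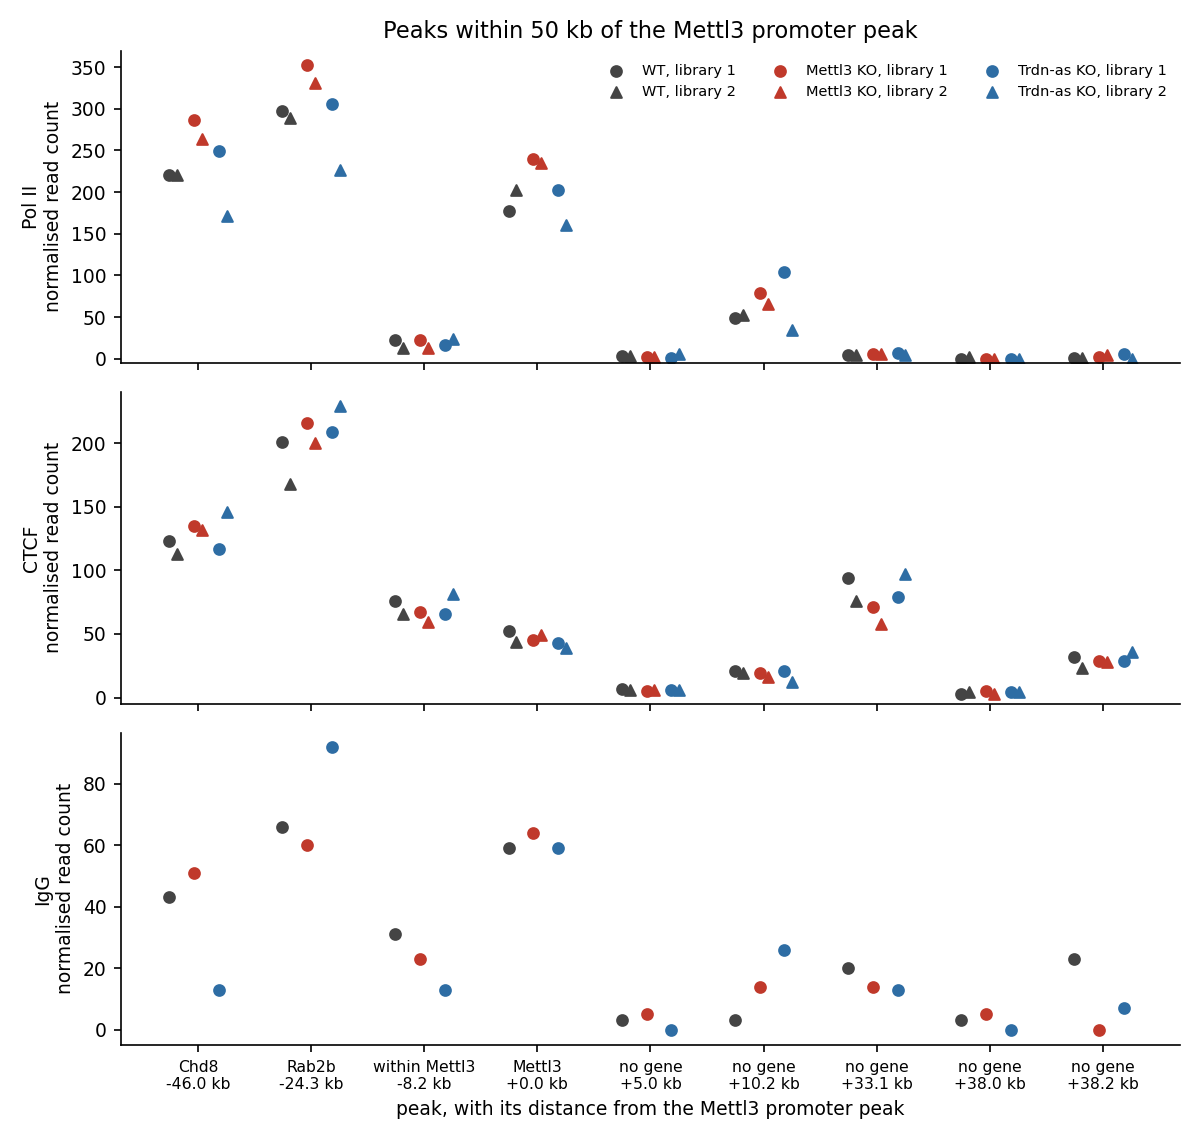
Normalised read counts of Pol II, CTCF and IgG (y axes, linear) at the 9 peaks within 50 kb of the *Mettl3* promoter peak (x axis, with the distance of each), as 1 point per library. At the *Mettl3*, *Chd8* and *Rab2b* promoters both *Mettl3* KO libraries lie above both WT libraries for Pol II, with no difference past the test, and the *Trdn-as* KO libraries spread widely.

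Over the whole window, Pol II passed the test in *Mettl3* KO against WT at 4 of 458 peaks, 1 higher and 3 lower. This was 0.873% of the peaks tested in the window, beside a background of 1.19% of all 52655 tested peaks, 0.985% in the rest of chromosome 14 and 1.2% on the other chromosomes. At an unadjusted p below 0.05, 63 window peaks passed, beside a background of 15.5% of all peaks. Chromosome 14 as a whole had 0.958% of its peaks called, 16th of 20 in a range from 0.592% on X to 1.82% on chromosome 5. The share of the window was therefore no higher than the background.

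By distance from *Mettl3* the tested peaks were few near the gene, with 27 within 1 Mb, so that at the background share less than 1 call would fall there. None of the 6 peaks tested within 0.1 Mb passed in limma, none of 21 between 0.1 and 0.5 Mb, and none of 46 between 1 and 2 Mb, where 0, 3 and 8 had an unadjusted p below 0.05. Between 2 and 5 Mb it was 2 of 193, and between 5 and 10 Mb 2 of 192. No peak between 0.5 and 1 Mb had enough Pol II to be tested. Of its 7 peaks, 5 are annotated to V segments of the T-cell receptor α locus, which is rearranged and transcribed in T cells, and Pol II over all 7 summed to 9 and 4 for WT against 9 and 5 for *Mettl3* KO.

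Both *Mettl3* KO libraries lay above both WT libraries at 167 tested peaks (36.5%, beside 31.2% of all tested peaks) and below at 70 (15.3%, beside 19.5%). The median log2 fold change of the window was 0.15, beside 0.077 on the other chromosomes and 0.011 in the rest of chromosome 14, and of the other 19 chromosomes only X had a median above that of the window. The kind of peak differed too, since 47.6% of the tested window peaks and 36.0% of all tested peaks were promoters of protein-coding genes. Among these promoters alone the median was 0.22 over 218 window peaks and 0.20 over all 18950. Among peaks without a gene it was -0.056 in the window and -0.040 over all. When each library was centred, that is shifted so that its median peak outside the window matched WT, the window's median was 0.051 and that of the peaks outside -0.020, and with scaling by uniquely mapped reads 0.013 and -0.058. Both settings shift all peaks of a library alike. The difference from the peaks outside was 0.070, and it was 0.037 without the second *Mettl3* KO library and 0.087 without the first.

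When *Trdn-as* KO was left out of the fit, so that 4 libraries of WT and *Mettl3* KO remained, 44 window peaks passed for Pol II, 37 higher and 7 lower. This was 9.61% of the window, beside a background of 9.23% of all tested peaks. By distance it was 0 of 6 peaks within 0.1 Mb (4 at an unadjusted p below 0.05, beside 24.3% of all tested peaks in this fit), 5 of 21 (23.8%) between 0.1 and 0.5 Mb, 10.9% between 1 and 2 Mb, 10.4% between 2 and 5 Mb and 7.29% between 5 and 10 Mb. Among promoters of protein-coding genes 17.0% passed in the window, 5 of 18 (27.8%, all 5 higher) within 1 Mb and 18.5% in the whole table. In the fit of all 6 libraries these 18 promoters had a median log2 fold change of 0.26, none was called in limma and 3 had an unadjusted p below 0.05. For CTCF the same limma fit called none of the 549 window peaks, 79 of which had an unadjusted p below 0.05 (beside 16.1% of all peaks), and 0% of all peaks.

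CTCF passed the test at 1 of 549 window peaks in *Mettl3* KO against WT (0.182%, beside a background of 0.185% of all 60649 tested peaks). An unadjusted p below 0.05 was found at 69, beside a background of 15.7% of all peaks. Both *Mettl3* KO libraries lay above both WT libraries at 75 peaks (13.7%, beside 15.8%) and below at 158 (28.8%, beside 27.7%). The median log2 fold change was -0.076, and on 17 of the other 19 chromosomes the median was above it, in a range from -0.083 to -0.046 over all chromosomes. It was -0.015 without the first WT library, -0.12 without the second and -0.020 with centred libraries. No tested CTCF peak within 2 Mb passed, where 1 of 8 within 0.1 Mb, 6 of 23 up to 0.5 Mb, 1 of 6 up to 1 Mb and 5 of 50 up to 2 Mb had an unadjusted p below 0.05 in limma. Over the 356 members tested for both, the log2 fold changes of Pol II and CTCF correlated across peaks with r = 0.21 and rho = 0.17, as a description only, since the points share libraries.

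All peaks of a distance class were also summed in each library. Pol II within 0.1 Mb of *Mettl3* summed to 895 and 925 (WT), 1104 and 1053 (*Mettl3* KO) and 1043 and 719 (*Trdn-as* KO). Between 0.1 and 0.5 Mb it was 3755 and 3837, 4509 and 4561, and 4113 and 3270 in the same order. Between 1 and 2 Mb it was 3869 and 3778, 4565 and 4602, and 3933 and 3200. In all 3 classes both *Mettl3* KO libraries stood above the other 4, by log2 fold changes against WT of 0.24 (SE 0.14), 0.26 (SE 0.10) and 0.26 (SE 0.10), with adjusted p of 0.40, 0.20 and 0.19 in limma. Over all peaks of the table the summed Pol II was higher in *Mettl3* KO by 0.16 on the same scale. The sum from 2 to 5 Mb, which holds *Myh6* and *Myh7*, had a log2 fold change of 0.027 (SE 0.071), that from 5 to 10 Mb 0.18 (SE 0.076, adjusted p = 0.24), and the whole window 0.10 (SE 0.064, adjusted p = 0.44). With only WT and *Mettl3* KO fitted, the sums within 0.1 Mb, from 0.1 to 0.5, 1 to 2 and 5 to 10 Mb and over the window passed (adjusted p of 0.0159, 0.000511, 0.000491, 6.83e-05 and 0.00412). With centred libraries the sums from 0.1 to 0.5, 1 to 2 and 5 to 10 Mb passed at 0.16, 0.16 and 0.078, and that from 2 to 5 Mb passed in the other direction, at -0.072. When each library was scaled by its uniquely mapped reads, the same folds were 0.10, 0.12, 0.12, 0.037 and -0.038, and none passed.

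For CTCF no sum passed the test against WT. Within 0.1 Mb they were 656 and 567 (WT), 647 and 600 (*Mettl3* KO) and 635 and 702 (*Trdn-as* KO), and over the whole window 31013 and 28820, 28983 and 28850, and 30606 and 31437. The *Mettl3* KO values fell within the range of WT in both, with log2 fold changes of 0.031 (SE 0.066) and -0.048 (SE 0.022, adjusted p = 0.29 in limma). From 0.1 to 0.5 and from 5 to 10 Mb the libraries also overlapped. Both *Mettl3* KO libraries were below both WT libraries in the 3 other classes. From 0.5 to 1 Mb the sums were 95 and 101 for WT against 89 and 83 for *Mettl3* KO (-0.19, SE 0.10, adjusted p = 0.38). From 1 to 2 Mb they were 3277 and 2927 against 2911 and 2854 (-0.10, SE 0.040, adjusted p = 0.22). From 2 to 5 Mb they were 13752 and 12978 against 12835 and 12940 (-0.052, SE 0.020, adjusted p = 0.22), and the last 2 classes had unadjusted p of 0.017 and 0.019 in limma. Without the first WT library these 2 were -0.022 and -0.010, and over all peaks of the table the sum differed by -0.050. The peaks within 15 kb upstream of *Mettl3* summed for CTCF to 28 and 25 (WT) and to 24 and 22 (*Mettl3* KO), which gave -0.20 on the log2 scale (SE 0.20, adjusted p = 0.66).

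As shares of each library, the 57 peaks within 1 Mb took 0.108% and 0.109% of all Pol II signal in *Mettl3* KO, 0.102% in both WT libraries and 0.105% and 0.0991% in *Trdn-as* KO. The 2 *Mettl3* KO libraries were above the other 4, and the two-sided p of 0.067 is the smallest that the exact permutation test can give. CTCF shares of the same peaks were 0.0864% and 0.0832% in *Mettl3* KO and 0.0807% to 0.0818% in the others, with the same p of 0.067 in the exact permutation test. IgG reads within 1 Mb had a ratio to WT of 1.04 (95% interval 0.906 to 1.20) in *Mettl3* KO and of 1.21 (1.03 to 1.41) in *Trdn-as* KO. These intervals cover counting error only. Of the 27 peaks within 1 Mb tested for Pol II, 18 were promoters of protein-coding genes, beside 36.0% of all tested peaks. Promoters of this kind had a median log2 fold change of 0.26 within 1 Mb and 0.20 in the whole table. The part of this class in the Pol II share within 1 Mb was not tested. The share of the whole window was 1.27% and 1.28% for Pol II in *Mettl3* KO, with WT at 1.32% and 1.33% and *Trdn-as* KO at 1.28% and 1.24% (exact permutation test, p = 0.53 against the other 4). Without the stretch from *Myh6* to *Myh7* it was 0.986% and 0.989% in *Mettl3* KO and 0.946% to 0.968% in the others (exact permutation test, p = 0.067, the smallest possible). The CTCF share of the whole window was 1.005% in both *Mettl3* KO libraries and 0.998% to 1.012% in the others (exact permutation test, p = 0.8). Without that stretch the CTCF share was 0.978% and 0.975% in *Mettl3* KO and 0.976% to 0.989% in the others (exact permutation test, p = 0.2).

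The smallest adjusted p of the window lay 2.7 Mb from *Mettl3*, at *Myh7* (ENSMUSG00000053093). *Myh7* encodes β myosin heavy chain, the slow isoform that dominates before birth and gives way to the α chain of *Myh6* in the adult mouse ventricle. The *Myh7* peak, from 55225460 to 55246065, covers the first part of the gene and the DNA before it. Its Pol II values were 4531 and 4807 (WT), 2586 and 2617 (*Mettl3* KO) and 4451 and 3581 (*Trdn-as* KO). Both *Mettl3* KO libraries were below the other 4, and the log2 fold change against WT was -0.84 (SE 0.099, adjusted p = 3.65e-08 in limma). The call was lost without the filter, without the variance trend and with scaling by uniquely mapped reads (adjusted p of 0.17, 0.38 and 0.75), and when any 1 WT or *Mettl3* KO library was left out, with log2 fold changes between -0.98 and -0.80 throughout.

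*Myh6* (ENSMUSG00000040752) next to it did not pass the test for Pol II. Its peak, from 55181949 to 55214903, had the highest Pol II value of all peaks in the table, with 10654 and 11527 (WT), 11283 and 11566 (*Mettl3* KO) and 9901 and 7625 (*Trdn-as* KO), and the *Myh7* peak ranked 8th. The *Myh6* peak also overlaps the bodies of *Gm17428* and *Myh7*, so its values are not those of *Myh6* alone. The log2 fold change of *Mettl3* KO against WT was 0.044 (SE 0.082, adjusted p = 0.84 in limma), and it was -0.056 with centred libraries and -0.096 with scaling by uniquely mapped reads, neither past the test. For every 100 reads at *Myh6*, *Myh7* had 42.5 and 41.7 (WT), 22.9 and 22.6 (*Mettl3* KO) and 45.0 and 47.0 (*Trdn-as* KO), a ratio within each library that does not depend on its scaling. Per length, the mean Pol II level in WT was 337 normalised read counts per kb at *Myh6* and 227 at *Myh7*, beside 209 at the *Mettl3* promoter.

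The 4 smaller peaks between them, all on the *Myh7* gene body, had the same direction. The peak from 55215000 to 55217267 had 345 and 410 for WT against 252 and 237 for *Mettl3* KO, and that from 55223068 to 55225384 had 174 and 222 against 123 and 117. At 5 of the 6 peaks from *Myh6* to *Myh7* both *Mettl3* KO libraries were below both WT libraries, beside 19.5% of all tested peaks. *Myh6* was the exception. The 5 lie next to each other on *Myh7* and are not separate observations. These peaks also overlap the gene ENSMUSG00000115610, and ChIP reads do not tell the strands apart. At the other end of *Myh6*, the peak at *Cmtm5*, from 55174715 to 55181870, had 1972 and 2012 (WT), 1645 and 1588 (*Mettl3* KO) and 1741 and 1275 (*Trdn-as* KO). Both knockouts lay below WT, with log2 fold changes of -0.30 (SE 0.12, adjusted p = 0.21) for *Mettl3* KO and -0.42 (SE 0.12, adjusted p = 0.17) for *Trdn-as* KO in limma. With all libraries of the fitted genotypes kept, *Mettl3* KO against WT passed with these 2 genotypes alone (0.00265) and with centred libraries (2.23e-05), and under no other alternative.

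The 1 CTCF call was the *Myh6* peak, with 299 and 289 (WT), 455 and 480 (*Mettl3* KO) and 340 and 322 (*Trdn-as* KO). Both *Mettl3* KO libraries stood above the other 4, with a log2 fold change against WT of 0.67 (SE 0.060, adjusted p = 6.85e-05 in limma). The call was lost with only WT and *Mettl3* KO fitted (0.26), without the filter (0.36), without the variance trend (0.12) and without any 1 library (0.26 to 0.70), with log2 fold changes between 0.63 and 0.72 over all alternatives. The IgG libraries moved in the same direction there, with 394 estimated reads (WT) against 294 (*Mettl3* KO), a ratio per library total of 1.41 (95% interval 1.21 to 1.65, counting error only), and of 1.22 (1.01 to 1.46) for *Trdn-as* KO. At *Myh7* the IgG ratio of *Mettl3* KO to WT was 1.06 (0.872 to 1.28). Of every 100000 reads in peaks, the *Myh6* peak took 9.72 and 10.0 in the WT CTCF libraries, 15.8 and 16.7 in *Mettl3* KO, 48.4 in WT IgG and 68.4 in *Mettl3* KO IgG. These shares do not compare CTCF with IgG, since peaks held only a small part of the IgG reads. The *Myh6* promoter sequence carried by the transgene is present only in *Mettl3* KO mice, and its part in these values was not tested.

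**Figure D2:**
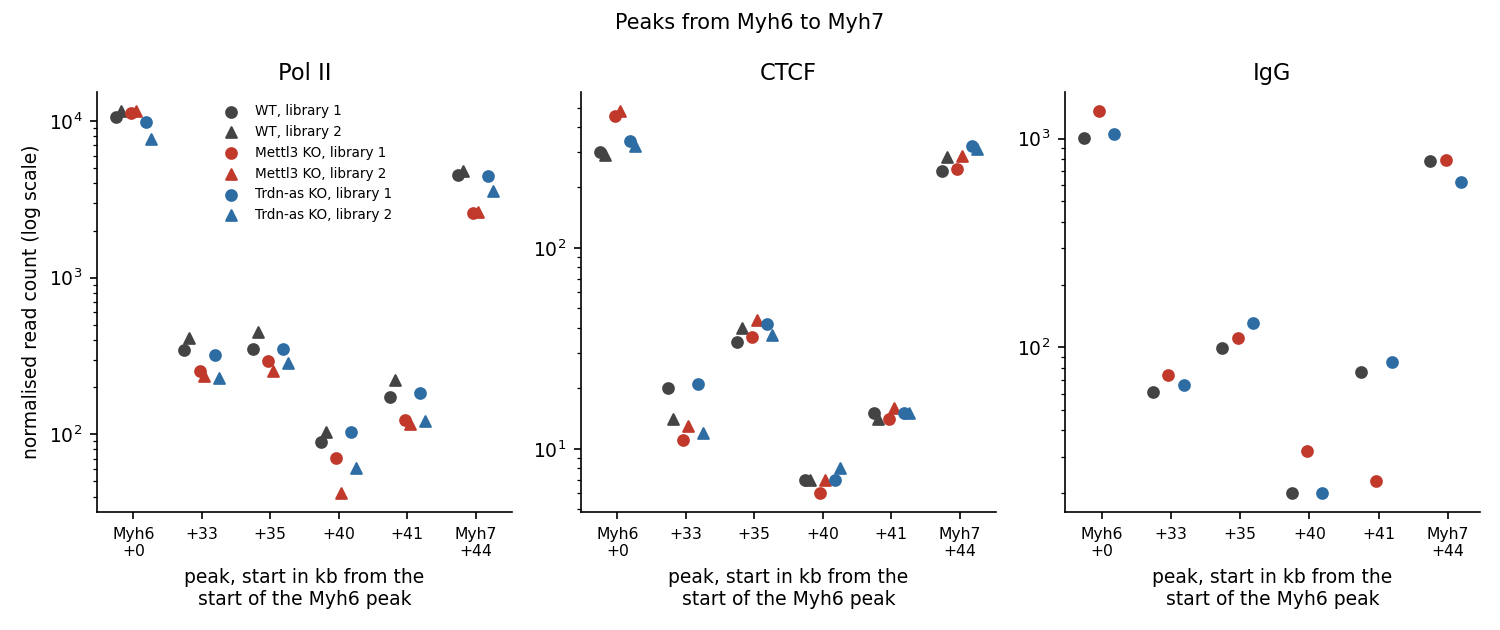
Normalised read counts (y axis, log scale) of Pol II, CTCF and IgG at the 6 peaks from *Myh6* to *Myh7* (x axis, start of each peak in kb from the start of the *Myh6* peak), with 1 point per library. For Pol II the *Mettl3* KO libraries lie below WT at the 5 peaks on the *Myh7* side and overlap the range of WT at *Myh6*, and for CTCF and IgG they lie above WT at *Myh6*.

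Of the other 3 Pol II calls, 2 are described here, both at peaks of low signal. A peak from 54680711 to 54681845 inside *Mmp14*, annotated to the lncRNA ENSMUSG00000120849, had 50 and 65 (WT), 133 and 102 (*Mettl3* KO) and 68 and 55 (*Trdn-as* KO), a log2 fold change of 1.02 (SE 0.28, adjusted p = 0.0473 in limma). Its CTCF values were 30 and 26 for WT against 46 and 41 for *Mettl3* KO (0.62, SE 0.16, adjusted p = 0.091). The peak from 62127095 to 62127494, without a gene, had 39 and 29 for WT against 24 and 3 for *Mettl3* KO (-1.79, SE 0.50, adjusted p = 0.0495). Without the second *Mettl3* KO library the last fold was -0.47 (adjusted p = 0.80), and without the first -3.11 (adjusted p = 0.083). *Mettl3* KO did not overlap WT at either, and both lost the call with scaling by uniquely mapped reads, without the filter, without the variance trend or without any 1 WT or *Mettl3* KO library. The peak at 62127095 also lost it with either *Trdn-as* KO library left out (adjusted p of 0.149 and 0.141) and with only WT and *Mettl3* KO fitted (0.142), where the peak inside *Mmp14* kept it.

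*Mmp14* encodes a membrane-bound protease that cleaves collagen, and its promoter had Pol II values of 163 and 173 (WT), 246 and 264 (*Mettl3* KO) and 184 and 124 (*Trdn-as* KO). *Bmp4*, a secreted ligand of the TGF-β family, had 330 and 358, 514 and 511, and 348 and 281 in the same order. Both promoters stood above the other 4 libraries in *Mettl3* KO, with log2 fold changes of 0.60 (SE 0.21, adjusted p = 0.15) and 0.57 (SE 0.17, adjusted p = 0.069) in limma. *Bmp4* passed with WT and *Mettl3* KO alone (0.00443) and with centred libraries (0.00539), as did *Mmp14* (0.0114 and 0.047), and neither passed with scaling by uniquely mapped reads. The 4 fibroblast markers, whose summed levels were 387 and 398 normalised read counts per kb in WT and 701 and 742 in *Mettl3* KO, were also higher, and their part in the values of *Mmp14* and *Bmp4* was not tested.

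Promoters of 4 gene lists of the window were followed, 62 genes in all, of which 46 had a peak. In heart muscle and signalling, 1 of 16 genes with a tested peak (*Myh7*) was lower, none was higher, 8 had an unadjusted p below 0.05, both *Mettl3* KO libraries were above WT at 7 and below at 4, and the median log2 fold change was 0.21. *Ndrg2*, a stress-related gene of muscle, had 912 and 972 for WT against 1118 and 1183 for *Mettl3* KO (0.29, SE 0.13, adjusted p = 0.27), and passed with only WT and *Mettl3* KO fitted (0.0102) and without either *Trdn-as* KO library (0.0123 and 0.011). Over all tested promoters of protein-coding genes the median was 0.20, with 49.2% above, 14.3% below, 20.9% at an unadjusted p below 0.05 and 1.46% called. That set takes every tested promoter peak, while each listed gene entered with its promoter peak of most Pol II, so the sets are unlike.

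In RNA processing and chromatin, none of 15 genes passed in limma (3 at an unadjusted p below 0.05), and the median was 0.29. Both *Mettl3* KO libraries lay above WT at 14 and below at 0, beside 49.2% and 14.3% of all tested promoters of protein-coding genes. *Hnrnpc*, a protein that binds nascent transcripts and reads m6A-dependent structure, had Pol II values of 716 and 679 for WT against 821 and 803 for *Mettl3* KO (0.22, SE 0.14, adjusted p = 0.46). *Pabpn1*, the nuclear poly(A)-binding protein, had 400 and 407 against 545 and 546 (0.43, SE 0.17, adjusted p = 0.19). *Tep1*, a telomerase-associated protein, had the largest log2 fold change of the list, with 157 and 198 against 286 and 267 (0.65, SE 0.22, adjusted p = 0.13). *Prmt5*, an arginine methyltransferase, had 192 and 169 against 259 and 229 (0.43, SE 0.20, adjusted p = 0.29). With only WT and *Mettl3* KO fitted, *Hnrnpc* (adjusted p = 0.0362), *Pabpn1* (0.00741), *Tep1* (0.0144) and *Prmt5* (0.0485) passed in limma, where 18.5% of all tested promoters of protein-coding genes did. The first 3 also passed without either *Trdn-as* KO library, and *Tep1* with centred libraries (0.0498).

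In mitochondria and protein handling, none of 8 genes passed (0 at an unadjusted p below 0.05), with a median of 0.17. Of these, 7 lay above and 0 below, beside the same 49.2% and 14.3% of all promoters. *Psmb5*, a catalytic subunit of the proteasome, had 129 and 140 for WT against 172 and 178 for *Mettl3* KO (0.38, SE 0.22, adjusted p = 0.41). In blood and immune cells, 7 of 13 genes had a peak, none passed (1 at an unadjusted p below 0.05), 4 lay above and 2 below, with a median of 0.27, and the highest Pol II was at *Irf9*, a transcription factor of the interferon response, with 361 and 349 for WT against 428 and 426 for *Mettl3* KO (0.27, SE 0.17, adjusted p = 0.46). For CTCF, the *Myh6* peak was the only call of the 4 lists, and the medians were -0.041, 0.021, -0.17 and -0.083 in the order given, beside -0.059 over all tested promoters of protein-coding genes, of which 0.142% were called.

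*Trdn-as* KO against WT shares the WT libraries with the comparison above. It called 2 window peaks for Pol II, both lower (0.437%, beside a background of 0.304%), *Myh6* (log2 fold change -0.35, adjusted p = 0.029) and a peak from 55599506 to 55600141 (-1.73, adjusted p = 0.019), and none of 549 for CTCF in limma (background 0.587%), where 55 had an unadjusted p below 0.05 (beside 10.2% of all peaks). Without the second *Trdn-as* KO library both Pol II calls were lost, with -0.16 (adjusted p = 0.21) at *Myh6* and -1.50 (adjusted p = 0.28) at the other peak, which was chosen after its values were seen. The test of *Mettl3* KO against *Trdn-as* KO, whose *Mettl3* locus is not described as altered, called 10 window peaks for Pol II, 8 higher and 2 lower (2.18%, beside a background of 1.5%), and 3 for CTCF (0.546%, beside 1.37%). None of the Pol II calls lay within 1 Mb of *Mettl3*. Without the second *Trdn-as* KO library for Pol II, 1 of the 10 kept the call, *Myh7*, with a log2 fold change of -0.77 (adjusted p = 8.56e-06 in limma). The 3 CTCF calls were lost when any 1 of the 6 CTCF libraries was left out.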

How the data were processed

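ChIP-seq of mouse ventricles was analysed from 1 deposited table with 15 columns of single libraries, 6 for Pol II, 6 for CTCF and 3 for IgG, and the 3 inputs were not analysed here. The authors used Trimmomatic 0.39 for trimming and STAR 2.7.11b for alignment to GRCm39, removed duplicates (Picard 3.1.1) and multi-mapping reads, among them reads that map to both of the similar genes *Myh6* and *Myh7*, called peaks with MACS against input, merged the peaks of all samples and counted reads with featureCounts. The deposited values are scores made by the authors from counts divided by DESeq2 1.36.0 size factors and rounded to whole numbers. Genes were assigned by the authors where a start lies within 5000 nt.

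The design allowed for read counts, but the values are normalised, so limma 3.58.1 (R 4.3.3) was run on log2(value + 1) with a variance trend over the 6 libraries of a target and genotype as the only term. Peaks reaching a value of 10 in 2 or more of these libraries were tested, with Benjamini-Hochberg adjustment over all tested peaks at 0.05. Fold changes on this scale understate changes of low values. The script was tested on simulated data. The value of 1 read was found from the spacing of the values for Pol II and IgG, and for CTCF it is below 1, so whole reads were not recovered and edgeR was not run. Shares were compared with a two-sided exact permutation test, which cannot go below 0.33 for 2 libraries against 2. Intervals of IgG ratios are exact at 95%. A read count of 0 allows up to 3 reads, worth 7.63 to 19.7 in IgG. Python 3.11.15 was used for the other steps.

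Named peaks were all those within 50 kb of the *Mettl3* promoter peak, the promoter peak with the most Pol II of each listed gene, called peaks whose knockout libraries both lay on 1 side of WT, and the 3 strongest CTCF peaks within 500 kb. Values of 1 gene of the window, which holds 1 of the called peaks, are not reported here. The members and lists were chosen with earlier results of these data known. Alternatives covered scaling, filter, pseudocount, samples in the fit, replicate block, threshold, variance trend, window and leaving out each replicate.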

Additional observations from a re-analysis of the deposited data

Results flagged for a closer look

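Peaks at which *Mettl3* KO and *Trdn-as* KO differed by the test between the knockouts (limma, adjusted p below 0.05) were looked at again. Without the second *Trdn-as* KO library for Pol II, 1 of the 10 Pol II calls (*Myh7*) remained, and the 3 CTCF calls were lost without any 1 CTCF library. These peaks were chosen after their values were seen. For Pol II the log2 fold changes of *Mettl3* KO against *Trdn-as* KO were -0.62 at *Myh7*, 0.39 at *Myh6*, 0.71 at *Bmp4*, 0.75 at *Mmp14*, 0.72 at *Nfatc4* and 2.60 at the *Cmtm5* peak from 55174341 to 55174568. *Nfatc4*, a transcription factor activated by calcineurin, had 226 and 252 (WT), 353 and 299 (*Mettl3* KO) and 229 and 169 (*Trdn-as* KO). The *Cmtm5* peak had 11 and 21 (WT), 19 and 21 (*Mettl3* KO) and 3 and 2 (*Trdn-as* KO). Peaks without a gene had 1.80 at 55599506, 1.62 at 47333753 inside *Samd4* and 1.46 at 54470477. Without the second *Trdn-as* KO library the values were -0.77 at *Myh7*, 0.21 at *Myh6*, 0.56 at *Bmp4*, 0.50 at *Nfatc4*, 0.47 at *Mmp14* and 2.39 at the *Cmtm5* peak. They were 1.58 at 55599506, 0.76 at 47333753 and 0.75 at 54470477. At 55599506 the values were 41 and 42 (WT), 52 and 37 (*Mettl3* KO) and 14 and 10 (*Trdn-as* KO). With uniquely mapped reads as the library size 2 of the 10 calls remained, at 55599506 and at the *Cmtm5* peak, and with centred libraries all 10.

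For CTCF the differences between the knockouts were 0.50 at *Myh6*, -0.76 at a peak from 48731306 inside *Tmem260* and -1.24 at *Trav10n*, and without the second *Trdn-as* KO library 0.46, -0.72 and -1.01. The peak inside *Tmem260* had 46 and 38 (WT), 30 and 24 (*Mettl3* KO) and 45 and 47 (*Trdn-as* KO). *Trav10n*, a V segment of the T-cell receptor α locus 816 kb from *Mettl3*, had 9 and 11 (WT), 8 and 6 (*Mettl3* KO) and 15 and 21 (*Trdn-as* KO). Neither differed from WT past the test in either knockout.

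Of the sums by distance, Pol II from 1 to 2 Mb differed between the knockouts by 0.37 on the log2 scale, and CTCF by -0.49 from 0.5 to 1 Mb, by -0.10 from 2 to 5 Mb and by -0.10 over the whole window. Without the second *Trdn-as* KO library of the target these were 0.22 (adjusted p = 0.0103 in limma), -0.45 (0.40), -0.099 (0.41) and -0.082 (0.48), so that the Pol II sum stayed past the test with a smaller difference and the CTCF sums did not pass. The CTCF sum from 0.5 to 1 Mb was 95 and 101 (WT), 89 and 83 (*Mettl3* KO) and 118 and 125 (*Trdn-as* KO), so the knockouts lay on opposite sides of WT.

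The IgG libraries, which entered no test, had 1.41 times the WT share of reads at the *Myh6* peak in *Mettl3* KO. The interval lay above 1, but it covers counting error only, with 1 library per genotype.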

How the results depend on the processing

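Counts of called window peaks depended strongly on the settings. For Pol II in *Mettl3* KO against WT, the 4 calls (1 higher, 3 lower) became 19 (9 and 10) with centred libraries, 8 (4 and 4) with a pseudocount of 5, 44 (37 and 7) with only WT and *Mettl3* KO, 2 (1 and 1) within 5 Mb and 1 (0 and 1) at an adjusted p below 0.01. They were 0 (0 and 0) with scaling by uniquely mapped reads, without the filter and without the variance trend, where 33, 7 and 2 of all peaks were called and 63 window peaks had an unadjusted p below 0.05 in the reported fit. Leaving out 1 library gave 0 to 41 calls (0 to 34 higher, 0 to 7 lower), with 0 for any WT or *Mettl3* KO library, at most 13 of all peaks, and 41 and 40 without *Trdn-as* KO library 1 and 2. A lone library was assumed to vary like the other groups. For CTCF the 1 call (1 higher) became 4 (3 and 1) with centred libraries, 2 (1 and 1) with a pseudocount of 5, and 0 (0 higher) without the stretch from *Myh6* to *Myh7*, without the filter, with only WT and *Mettl3* KO, without the variance trend and, as a range from 0 to 0, without any library. Between the knockouts, the 10 Pol II calls became 16 with centred libraries or a pseudocount of 5, 3 at an adjusted p below 0.01, 2 with scaling by uniquely mapped reads, 0 without the filter or the trend and 0 to 110 without 1 library (110 without *Trdn-as* KO library 1, 1 without library 2). The 3 CTCF calls became 6, 1 at the stricter threshold, and 0 without the filter, the trend or any library. The causes of these shifts were not tested.

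Of the Pol II sums, centred libraries gave 0.16 from 0.1 to 0.5 Mb, 0.16 from 1 to 2 Mb and 0.078 from 5 to 10 Mb, all past the test, and turned that from 2 to 5 Mb to -0.072 (adjusted p = 0.042 in limma). Scaling by uniquely mapped reads gave -0.11 from 2 to 5 Mb and -0.038 for the window. With only WT and *Mettl3* KO, 0.24 within 0.1 Mb, 0.26 from 0.1 to 0.5 Mb, 0.26 from 1 to 2 Mb, 0.18 from 5 to 10 Mb and 0.10 for the window passed. Leaving out 1 library gave 0.21 to 0.28, 0.24 to 0.27, -0.37 to 0.63, 0.24 to 0.28, -0.015 to 0.070 and 0.16 to 0.19 over the 6 classes in order of distance, and 0.073 to 0.13 for the window. CTCF sums with centred libraries were 0.0052 from 2 to 5 Mb, 0.015 from 5 to 10 Mb and 0.0090 for the window, and without 1 library -0.074 to 0.14 within 0.1 Mb, -0.027 to 0.060 from 0.1 to 0.5 Mb, -0.24 to -0.14 from 0.5 to 1 Mb, -0.19 to -0.022 from 1 to 2 Mb, -0.094 to -0.010 from 2 to 5 Mb, -0.099 to 0.016 from 5 to 10 Mb and -0.10 to 0.0048 for the window.

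Replicate numbers did not pair the samples, since the correlation of deviations was between -0.010 and 0.0059 in 5 pairs of genotypes and -0.24 for CTCF in WT and *Trdn-as* KO. With the replicate number as a block, 4 Pol II peaks and 1 CTCF peak were called against WT, and 13 and 1 between the knockouts. A crossed pairing for CTCF, chosen after seeing the data, called 7 (3 higher, 4 lower) and 14. Over the named peaks, 1290 values kept direction and side of the threshold, 43 fell below it, 37 rose past it and 49 uncalled values changed sign. Scaling by uniquely mapped reads was not run for CTCF, and no count test was run on any library.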

Other observations

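In steps of 1 Mb, the median log2 fold change of Pol II in *Mettl3* KO against WT was 0.20 over the 25 tested peaks of the step below *Mettl3* and ran from -0.25 at 8 to 9 Mb (40 peaks) to 0.28 at 3 to 4 Mb on the smaller side (7 peaks), among steps with at least 5 tested peaks. Steps far from *Mettl3* thus covered the value of the step next to it. At smaller coordinates the median was 0.18 over 160 peaks, with none called, and at larger coordinates 0.12 over 297 peaks, with 4 called.

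Chosen after its values were seen, *Arhgef40*, which encodes a guanine nucleotide exchange factor and lies between *Ndrg2* and *Mettl3*, had Pol II values of 295 and 282 (WT), 396 and 403 (*Mettl3* KO) and 354 and 271 (*Trdn-as* KO) at its promoter peak, from 52221778 to 52223942. Both *Mettl3* KO libraries were above the other 4, with a log2 fold change of 0.47 (SE 0.18) and an adjusted p of 0.18 in limma.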
